A study of Mus musculus with 16 samples.

Results

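The genotype by time interaction compares how muscle cells responded to night and day serum of mice with and without a liver clock. C2C12 myotubes, the fused and differentiated form of a mouse myoblast line, were exposed to serum for 24 hr and profiled by poly-A RNA-seq. The serum came from Bmal1hep-/- mice, in which Bmal1 was deleted in the liver, bled at ZT16 (night) or ZT4 (day), and from wild-type (WT) mice bled at the same times. These groups are called LKO ZT16, LKO ZT4, WT ZT16 and WT ZT4, each of 4 libraries, and all 16 of the 16 libraries entered the comparison. The interaction is LKO ZT16 minus LKO ZT4, from which WT ZT16 minus WT ZT4 is subtracted, on log2(FPKM+1). A value below 0 means that the night-minus-day difference was lower under LKO serum than under WT serum. The deletion was in the serum donors, so the myotubes of all 4 groups carried the same genome. The labels call the libraries biological replicates. The sources used here do not give the Cre driver, the number of donors behind each serum, any pooling or the share of serum in the medium.

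BMAL1 pairs with CLOCK to drive the daily transcription programme of each cell, and the liver clock helps to time glucose, lipid and amino acid metabolism and the hormones that the liver secretes. ZT counts hours from lights on, and mice, being nocturnal, eat mostly in the dark phase. Muscle cells respond to circulating insulin, growth factors and amino acids in part through mTORC1, which controls mRNAs of ribosomal proteins. These mRNAs begin with a C and a run of pyrimidines, called a 5′ terminal oligopyrimidine tract. Neither mTORC1 activity nor translation was measured here.

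Between 14234 and 14877 genes had an FPKM above 0 in each library, and the FPKM of a library summed to 580818 to 690636. Relative depth, estimated from the step size of low values, ran from 65.7 to 100% of the deepest library, WT ZT4 replicate 2. It was 73.0 to 97.6% in LKO ZT16, 65.7 to 73.7% in LKO ZT4, 65.7 to 87.4% in WT ZT16 and 71.7 to 100% in WT ZT4. These estimates are rough, since outside that library only 10.5 to 32.8% of the genes used lay near the estimate. Replicates within LKO ZT4 differed by an SD of 0.266 to 0.377 log2 per pair, against 0.217 to 0.283 in the other groups, and LKO ZT4 replicate 1 lay at -22.2 on principal component 1 (17.2% of the variance), beyond the next library on that side, at -11.4. Of 32 myotube and sarcomere genes in the table all 32 were expressed, whereas 7 of 14 hepatocyte markers were at 0 in every library and the 14 summed to at most 0.174 FPKM. Arntl, the table's symbol for Bmal1, averaged 5.07 ± 0.964 FPKM in LKO ZT16, 5.93 ± 1.21 in LKO ZT4, 5.35 ± 0.365 in WT ZT16 and 6.31 ± 1.62 in WT ZT4 (mean ± SD, n = 4 per group, as throughout), with an interaction of -0.01 ± 0.21 (estimate ± SE, log2, as throughout). It does not check the deletion, which was in the donors.

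The night-minus-day response differed between LKO and WT serum in 11 of 11783 tested genes (0.0934%), at a limma adjusted p under 0.05. Of these, 10 had an interaction below 0 (0.0849% of tested genes) and 1 above 0. The 10 were 4 transcripts of the small and large cytosolic ribosomal subunits (Rps27rt, Rps21, Rpl38 and Rpl39), a pair of pseudogenes of such genes (Rpl34-ps1 and Gm12191), the small nucleolar RNA host Snhg6, the mitochondrial genes Slirp and Cox7a2, and Tmem208. The 1 above 0 was Chpt1, an enzyme of phosphatidylcholine synthesis. All 11 had opposite signs of the night-minus-day difference under LKO and WT serum. Over all 11783 tested genes, 3236 were below 0 under LKO serum and above 0 under WT serum. In 8 of the 11 the ZT16 and ZT4 libraries did not overlap in either genotype. Such a crossing was found in 0.306% of tested genes in the direction of the 10 and in 0.0424% in that of Chpt1. The 11 were chosen by the interaction, so crossing and separation partly follow from the choice. The fit shares 1 estimate of spread over 4 groups with 12 residual degrees of freedom, and its p-values rest on the spread between these 16 samples alone, which may be technical. An unadjusted p under 0.05 was found for 1209 genes (10.3%), 690 below 0 (5.86%) and 519 above 0 (4.4%).

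The number of genes that passed depended on the libraries included. Without LKO ZT4 replicate 1 the count was 109 (101 below 0), and without LKO ZT4 replicate 3 it was 39 (37 below 0). Both counts included the 11 genes. Without LKO ZT16 replicate 1 it was 6, all of them among the 11. Leaving out any other library gave 8 to 16. Giving all libraries an equal FPKM sum moved the median interaction of all genes to 0.17, against 0.01 as deposited, and called 17 genes, 7 above and 10 below 0, of which 10 were among the 11.

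**Figure D1:**
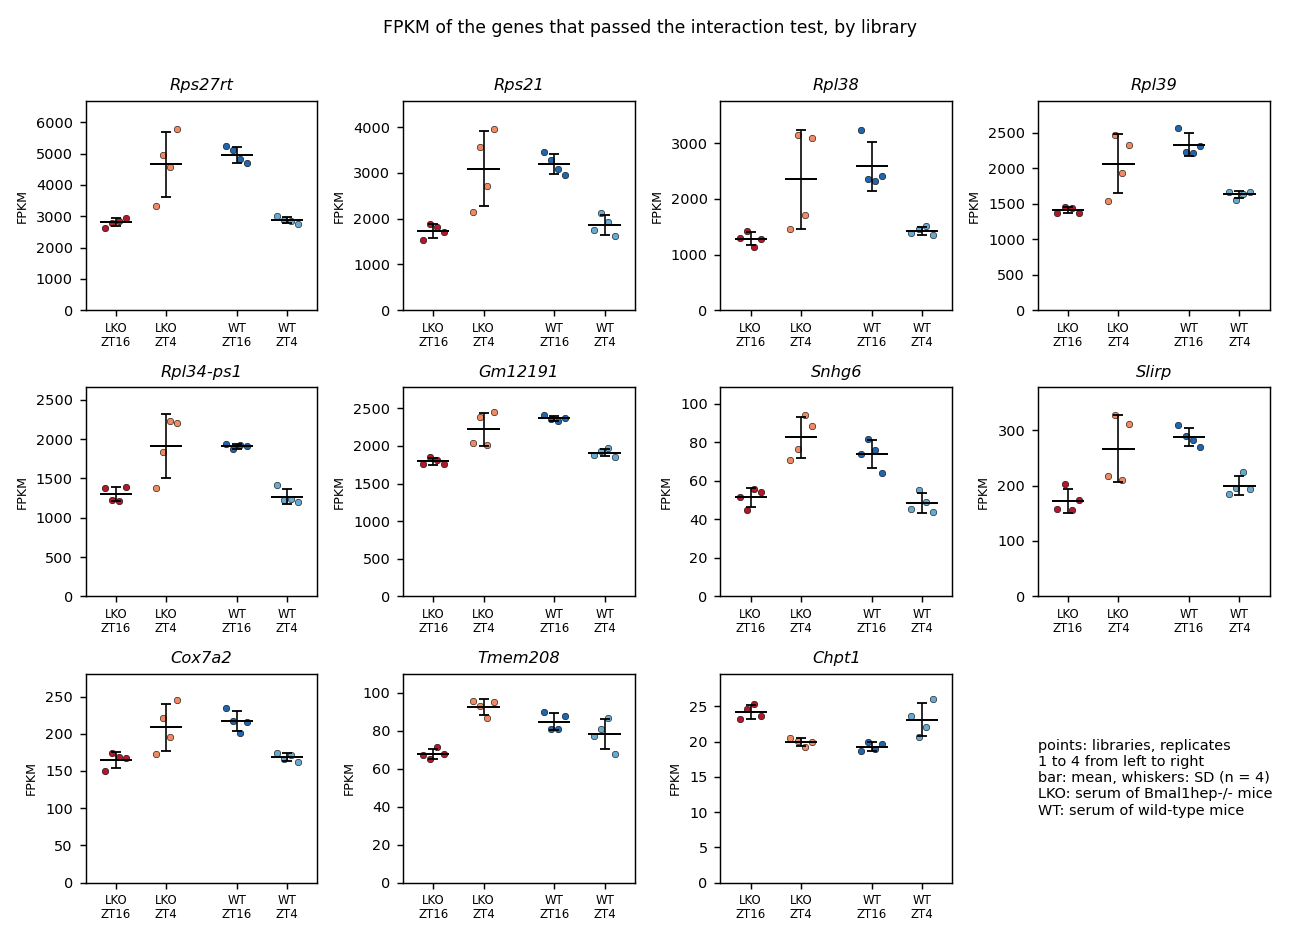
FPKM (vertical axes, from 0) of the 11 genes that passed, in the 4 libraries of each group, with the mean and SD. In the 10 genes below 0, LKO ZT4 and WT ZT16 have the higher means and LKO ZT16 and WT ZT4 the lower means, and in Chpt1 the order is the opposite.

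Among the 11 genes, the 3 most negative interactions were those of ribosomal protein transcripts (Rpl38, Rps21 and Rps27rt). Rps27rt (chr9:114982366-114982739 of GRCm38, minus strand), an intronless retrogene of the small-subunit gene Rps27, had FPKM of 2635, 2800, 2840 and 2951 in replicates 1 to 4 of LKO ZT16 and 3322, 4952, 4562 and 5798 in LKO ZT4. It had 5236, 5107, 4816 and 4695 in WT ZT16 and 2997, 2884, 2862 and 2757 in WT ZT4. Every library of LKO ZT4 and WT ZT16 was above every library of LKO ZT16 and WT ZT4, and LKO ZT4 was the most uneven group. The interaction was -1.49 ± 0.17 (adjusted p = 0.000592), from -0.70 ± 0.12 under LKO serum and 0.79 ± 0.12 under WT serum. Neither component passed alone (adjusted p = 0.0674 under LKO serum and 0.0551 under WT serum).

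Rps21 (chr2:180257377-180258445, plus strand), a protein of the small subunit, gave the same arrangement. It had 1530, 1881, 1816 and 1712 FPKM in LKO ZT16 and 2139, 3577, 2712 and 3956 in LKO ZT4. It had 3467, 3278, 3087 and 2966 in WT ZT16 and 1754, 2135, 1937 and 1624 in WT ZT4. The lowest LKO ZT4 library, at 2139, was just above the highest WT ZT4 library, at 2135, so the arrangement of the groups without overlap rests there on a small gap. The interaction was -1.58 ± 0.21 (adjusted p = 0.00346), with -0.80 ± 0.15 under LKO serum and 0.79 ± 0.15 under WT serum.

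Rpl38 (chr11:114668524-114672331, plus strand) and Rpl39 (chrX:37082520-37085402, minus strand) encode small proteins of the large subunit. Rpl38 had 1292, 1418, 1132 and 1279 FPKM in LKO ZT16 and 1462, 3146, 1704 and 3095 in LKO ZT4. It had 3238, 2362, 2320 and 2412 in WT ZT16 and 1386, 1457, 1514 and 1358 in WT ZT4. The LKO ZT4 libraries fell into a higher pair, replicates 2 and 4, and a lower pair, of which replicate 1 lay within the range of WT ZT4. Its interaction of -1.64 ± 0.28 (adjusted p = 0.0255) was the most negative of the 11. Its call was lost without LKO ZT16 replicate 1 or 3, WT ZT16 replicate 1 or 4, or any 1 of the 4 WT ZT4 libraries (adjusted p = 0.0537 to 0.0704). Rpl39 averaged 1411 ± 46.8 FPKM in LKO ZT16, 2064 ± 418 in LKO ZT4, 2331 ± 164 in WT ZT16 and 1633 ± 51.5 in WT ZT4. Its interaction was -1.04 ± 0.15 (adjusted p = 0.00983), and the ZT16 and ZT4 libraries did not overlap under either serum.

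The starts of these genes are shown because ribosomal protein mRNAs are known for the pyrimidine run at their first bases. RefSeq starts on GRCm38.p6 were matched for 7 of the 11 genes (not for Snhg6, Tmem208, Rpl34-ps1 and Gm12191), and each line gives 40 bases before the annotated start and 20 from it, on the gene's strand. Capitals mark a C followed by at least 5 pyrimidines that begins within 10 bases of the start. The windows are chr9:114982720-114982779 (minus) for Rps27rt, chr2:180257339-180257398 (plus) for Rps21, the first of 2 annotated starts (no such run was found at the other), chr11:114668540-114668599 (plus) for Rpl38 and chrX:37085203-37085262 (minus) for Rpl39. Those without such a run are chr12:87443856-87443915 (plus) for Slirp, chr9:79759834-79759893 (minus) for Cox7a2 and chr10:88503951-88504010 (minus) for Chpt1.
Rps27rt: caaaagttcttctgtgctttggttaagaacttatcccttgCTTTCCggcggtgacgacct
Rps21: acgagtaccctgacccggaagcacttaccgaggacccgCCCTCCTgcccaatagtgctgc
Rpl38: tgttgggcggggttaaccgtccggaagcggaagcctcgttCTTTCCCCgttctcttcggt
Rpl39: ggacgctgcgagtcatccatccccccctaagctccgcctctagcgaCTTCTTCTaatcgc
Slirp: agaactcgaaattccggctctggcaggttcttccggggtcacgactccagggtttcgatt
Cox7a2: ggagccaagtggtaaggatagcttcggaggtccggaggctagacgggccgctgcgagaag
Chpt1: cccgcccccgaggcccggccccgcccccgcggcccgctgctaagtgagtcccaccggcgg

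The run was present in 4 of these 7 genes, in 34 of 61 listed cytosolic ribosomal protein genes with a RefSeq start (55.7%), in 15 of 63 oxidative phosphorylation genes (23.8%) and in 2107 of all 9012 tested genes with one (23.4%). In Rps27rt and Rpl38 its first base was the annotated start itself. Reads listed under Rps27rt can come from Rps27, as given below, so its window may not be the start of the RNA measured. Over the 300 bases from 250 before the start to 50 after it, on both strands, the E-box CACGTG, which BMAL1 and CLOCK bind, was in 0 of the 7 and in 12.1% of all tested genes with a RefSeq start. The D-box TTATGNAA was in 0 of the 7 and in 2.27% of all. The ETS-type letters CCGGAAG were in 4 of the 7 (Rps21, Rpl38, Rpl39 and Slirp), in 41.0% of the ribosomal genes, in 22.2% of the oxidative phosphorylation genes and in 20.8% of all. The opposite-strand letters of CCGGAAG can overlap a pyrimidine run. A match is a description of these letters and not of a bound site.

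The pseudogenes that passed are near copies of ribosomal protein genes. Rpl34-ps1 (chr6:71124610-71124963, plus strand), a processed pseudogene, averaged 1302 ± 92.6 FPKM in LKO ZT16, 1913 ± 403 in LKO ZT4, 1911 ± 31.4 in WT ZT16 and 1270 ± 97.1 in WT ZT4. Its interaction was -1.12 ± 0.17 (adjusted p = 0.00983), and the LKO ZT4 libraries overlapped LKO ZT16 through replicate 1, at 1372. Gm12191 (chr11:49678710-49679057, minus strand), a processed pseudogene of Rpl30, had 1761, 1855, 1809 and 1754 FPKM in LKO ZT16 and 2043, 2379, 2013 and 2444 in LKO ZT4. It had 2412, 2362, 2326 and 2365 in WT ZT16 and 1884, 1933, 1970 and 1856 in WT ZT4, so that the higher pair of groups lay wholly above the lower pair. The interaction was -0.61 ± 0.09 (adjusted p = 0.0125).

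Reads of these transcripts can come from other loci. Rps27rt matches Rps27 at 100% over 341 nt, Rpl34-ps1 matches Rpl34 at 99.4% over 354 nt, and Gm12191 matches Rpl30 at 99.7% over 348 nt. Rps27rt was listed at a mean of 2807 ± 131 FPKM in LKO ZT16, whereas Rps27, the parent gene, was listed at 4.68 to 80.9 FPKM over the 16 libraries, with the highest in LKO ZT16 replicate 3 and none of the others above 11.2. Rpl34 had an interaction of -0.41 ± 0.21 (adjusted p = 0.529) and Rpl30 of -0.31 ± 0.18 (adjusted p = 0.570), and neither passed. In LKO ZT4 replicate 3 Rpl34 was at 856.9 FPKM, its lowest of the 16 libraries, and Rpl34-ps1 at 2235, its highest. In LKO ZT4 replicate 4 both were high, at 1559 and 2203. Whether reads moved between these copies was not tested. The sources used here do not say how multi-mapping reads were counted, so the values of these pairs, and of Rps21 and Rpl38, which have copies of at least 95% identity over 200 nt, are uncertain as to locus. By the same measure a Chpt1 transcript of 4863 nt matches Sycp3 at 100% over 313 nt and Gm13131 at 95.05% over 303 nt.

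Snhg6 (chr1:9941959-9944118, minus strand) is a long noncoding RNA whose introns carry small nucleolar RNAs. Among tested genes it had the smallest unadjusted p. It had 51.3, 44.6, 55.9 and 54.0 FPKM in LKO ZT16 and 70.9, 76.7, 94.2 and 88.1 in LKO ZT4. It had 74.1, 81.6, 76.1 and 63.9 in WT ZT16 and 45.1, 55.3, 48.8 and 44.0 in WT ZT4. The 8 libraries of LKO ZT4 and WT ZT16 were all above the other 8. The interaction was -1.27 ± 0.14 (adjusted p = 0.000592). Snhg6 fell under LKO night serum relative to LKO day serum (-0.67 ± 0.10, adjusted p = 0.0315), and under day serum it was higher with LKO than with WT serum (0.76 ± 0.10, adjusted p = 0.0111). Under WT serum the night-minus-day difference was 0.60 ± 0.10 and did not pass (adjusted p = 0.0898).

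The mitochondrial genes that passed have roles in mitochondrial RNA and respiration. Slirp (chr12:87443896-87452206, plus strand) encodes a partner of LRPPRC that stabilises mitochondrial mRNAs. It had 158, 203, 156 and 174 FPKM in LKO ZT16 and 218, 327, 211 and 312 in LKO ZT4. It had 310, 290, 282 and 270 in WT ZT16 and 185, 196, 225 and 194 in WT ZT4. LKO ZT4 again fell into a higher pair, replicates 2 and 4, and a lower pair. The interaction was -1.13 ± 0.18 (adjusted p = 0.0144), and without LKO ZT16 replicate 1 its adjusted p was 0.0527. A transcript of Slirp shares sequence with Snw1, a neighbour on the other strand whose interaction was 0.09 ± 0.07 (adjusted p = 0.688), and the sources used here do not say whether counting used strand. Cox7a2 (chr9:79755361-79759878, minus strand), a subunit of cytochrome c oxidase, averaged 165 ± 10.8 FPKM in LKO ZT16, 209 ± 31.5 in LKO ZT4, 217 ± 13.5 in WT ZT16 and 169 ± 5.42 in WT ZT4. Its interaction was -0.69 ± 0.12 (adjusted p = 0.0342), the largest adjusted p of the 11. Its call was lost when any 1 of 11 libraries was left out (LKO ZT16 replicates 1, 3 and 4, LKO ZT4 replicate 2, WT ZT16 replicates 1, 2 and 4, and the 4 of WT ZT4), with adjusted p from 0.0579 to 0.106.

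Tmem208 and Chpt1 were the remaining genes that passed. Tmem208 (chr8:105326354-105335219, plus strand) takes part in inserting proteins into the endoplasmic reticulum membrane. It had 67.5, 65.0, 71.7 and 67.7 FPKM in LKO ZT16 and 95.8, 93.1, 86.8 and 95.1 in LKO ZT4. It averaged 84.9 ± 4.61 in WT ZT16 and 78.3 ± 7.94 in WT ZT4, which overlapped. It fell under LKO night serum relative to LKO day serum (-0.44 ± 0.07, adjusted p = 0.0315), differed by 0.12 ± 0.07 under WT serum (adjusted p = 0.999), and had an interaction of -0.56 ± 0.10 (adjusted p = 0.0255). The call was lost without LKO ZT16 replicate 1 or 2, LKO ZT4 replicate 4, WT ZT16 replicate 1 or 4, or WT ZT4 replicate 1 (adjusted p = 0.0539 to 0.0733). It was lost too with the trend of each library with transcript length removed (-0.41, adjusted p = 0.175).

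Chpt1 (chr10:88452745-88504073, minus strand), choline phosphotransferase, had 23.3, 24.6, 25.4 and 23.6 FPKM in LKO ZT16 and 20.47, 20.13, 19.23 and 19.97 in LKO ZT4. It had 18.6, 20, 18.9 and 19.6 in WT ZT16 and 23.6, 20.7, 22.1 and 26.1 in WT ZT4. All LKO ZT16 and WT ZT4 libraries were above all LKO ZT4 and WT ZT16 libraries, the reverse of Snhg6. The interaction was 0.51 ± 0.09 (adjusted p = 0.0268). The call was lost without LKO ZT16 replicate 1, 2 or 3, LKO ZT4 replicate 4, WT ZT16 replicate 1, 3 or 4, or WT ZT4 replicate 1 (adjusted p = 0.0539 to 0.0842).

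Averages over genotype or time showed little of these differences. Averaged over genotypes, ZT16 minus ZT4 was at most 0.16 log2 in size among the 11, and averaged over times, LKO minus WT was at most 0.20. None of the 11 passed either averaged comparison, and over all tested genes 0 passed in limma, with 539 (4.57%) and 1393 (11.8%) at an unadjusted p under 0.05. LKO ZT16 against WT ZT4, and LKO ZT4 against WT ZT16, also gave 0 passing genes in limma, with 644 (5.47%) and 1249 (10.6%). A p that misses the threshold does not show that groups were alike. For Rps27rt LKO ZT16 minus WT ZT4 was -0.04 ± 0.12 and LKO ZT4 minus WT ZT16 was -0.12 ± 0.12, and for Snhg6 they were 0.09 ± 0.10 and 0.15 ± 0.10. Among the component comparisons, LKO night minus day called 2 genes (0.017%), LKO minus WT at ZT16 called 6 (0.0509%) and LKO minus WT at ZT4 called 1 (0.00849%). WT night minus day called 0 in limma, with 468 (3.97%) at an unadjusted p under 0.05. At ZT16, Rps27rt was lower with LKO than with WT serum (-0.82 ± 0.12, adjusted p = 0.0296), as were Rpl39 (-0.72 ± 0.11, adjusted p = 0.0296), Rps21 (-0.88 ± 0.15, adjusted p = 0.0387), Gm12191 (-0.40 ± 0.07, adjusted p = 0.0387), Slirp (-0.74 ± 0.13, adjusted p = 0.0424) and Ass1, an enzyme of arginine synthesis without a passing interaction that was named after its values were seen (-1.36 ± 0.22, adjusted p = 0.0387). The components share groups with the interaction and are not independent of it.

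**Figure D2:**
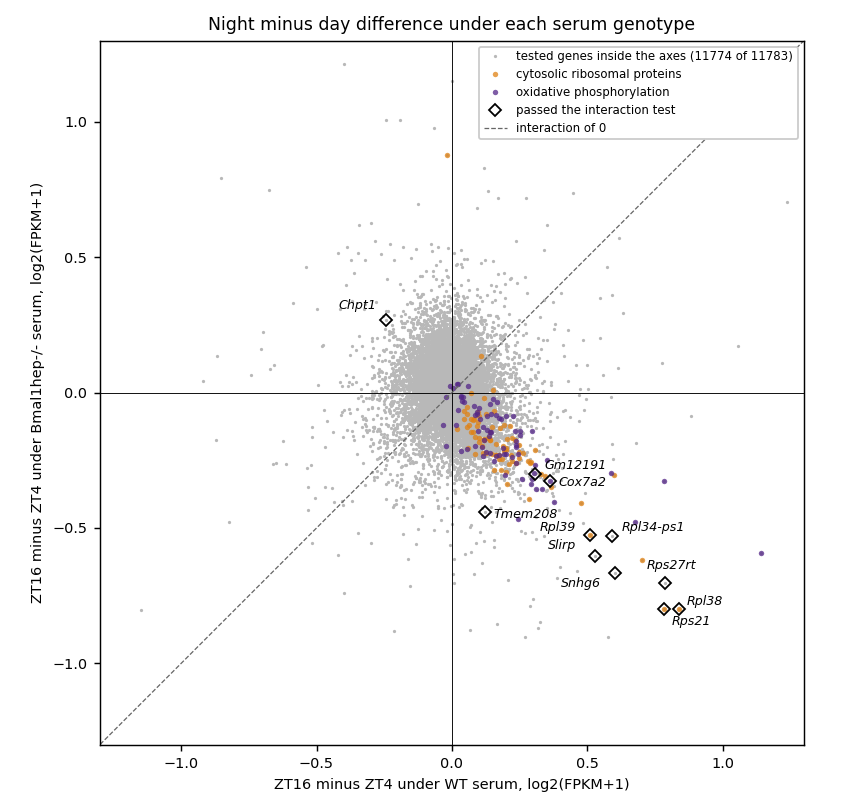
ZT16 minus ZT4 in log2(FPKM+1) under LKO serum (vertical) and WT serum (horizontal) for 11774 of the 11783 tested genes, with ribosomal protein and oxidative phosphorylation genes coloured and the 11 passing genes as diamonds. The diamonds of the 10 genes below 0 lie below 0 under LKO serum and above 0 under WT serum, and most coloured points lie in the same quadrant.

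Groups that did not overlap and crossed in this direction were rare among all genes. ZT16 lay wholly below ZT4 under LKO serum and wholly above it under WT serum in 36 genes (0.306% of those tested), and the opposite crossing was found in 5 (0.0424%). In 3 genes (0.0255%) both genotypes differed in the same direction without overlap. The 36 included 16 of the 82 listed cytosolic ribosomal proteins. All 8 libraries of LKO ZT4 and WT ZT16 were above all other libraries in 13 genes (0.11%) and below them in 3 (0.0255%).

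Cytosolic ribosomal protein genes as a list had interactions below 0 in 80 of 82 genes, with a median of -0.34, against 0.01 over all tested genes, of which 5626 (47.7%) were below 0. An unadjusted p under 0.05 below 0 was found for 59 of the 82 (72.0%), against 5.86% of all tested genes, and 3 passed over all genes (Rps21, Rpl39 and Rpl38). The median night-minus-day difference was -0.19 under LKO serum and 0.16 under WT serum. It was below 0 under LKO serum and above 0 under WT serum in 79 of the 82, against 3236 of all 11783 tested genes. Rpl37a, of the large subunit, had an interaction of -0.89 ± 0.18 (adjusted p = 0.0551, not passing). The members above 0, named after their values were seen, were Rpl26 (0.03 ± 0.16) and Rps27 (0.89 ± 0.73), and Rps27 has the 1 library far from the rest given above.

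Expressed as a mean log2(FPKM+1) over the 82 genes, the ribosomal list was at 10.12, 10.22, 10.23 and 10.18 in LKO ZT16 and 10.27, 10.46, 10.21 and 10.57 in LKO ZT4. It was at 10.55, 10.37, 10.41 and 10.45 in WT ZT16 and 10.29, 10.32, 10.22 and 10.18 in WT ZT4. The WT groups did not overlap, and LKO ZT4 replicate 3 lay within the range of LKO ZT16. When each library was left out in turn the median interaction of the list stayed between -0.41 and -0.30. It was -0.20 with length trends removed and -0.15 with the same summed FPKM in every library, where the median of all genes was 0.17.

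Nuclear-encoded oxidative phosphorylation genes showed a like shift. Of 77 subunits tested, 72 were below 0 with a median interaction of -0.29, 47 had an unadjusted p under 0.05 below 0 (61.0%) and 1, Cox7a2, passed. The median was -0.16 under LKO serum and 0.15 under WT serum. By complex, the median was -0.29 for complex I, which oxidises NADH (35 of 36 below 0), -0.36 for complexes III and IV, which pass electrons to oxygen (22 of 24), and -0.26 for ATP synthase (15 of 17). In complex I, Ndufa3 averaged 157 ± 25.1 FPKM in LKO ZT16, 224 ± 64.8 in LKO ZT4, 251 ± 20.4 in WT ZT16 and 157 ± 2.97 in WT ZT4 (interaction -1.15 ± 0.22, adjusted p = 0.0544, not passing), and Ndufc1 had -0.62 ± 0.14 (adjusted p = 0.0880). In complex IV, Cox6c had -0.67 ± 0.14, Ndufa4 -0.42 ± 0.09 (both adjusted p = 0.0757) and Cox7c -0.78 ± 0.18 (adjusted p = 0.0880). Atp5j2 of ATP synthase had -0.63 ± 0.14 (adjusted p = 0.0880).

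The oxidative phosphorylation list had a mean level of 7.56, 7.64, 7.65 and 7.62 in LKO ZT16 and 7.62, 7.95, 7.59 and 7.99 in LKO ZT4, on log2(FPKM+1). It had 7.93, 7.83, 7.79 and 7.84 in WT ZT16 and 7.67, 7.69, 7.62 and 7.66 in WT ZT4. As with Rpl38 and Slirp, LKO ZT4 split into replicates 2 and 4, near or above WT ZT16, and replicates 1 and 3, near LKO ZT16. The median interaction of the list was -0.15 with length trends removed, -0.14 over its 23 members of at least 1000 nt, and -0.11 with the same summed FPKM.

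**Figure D3:**
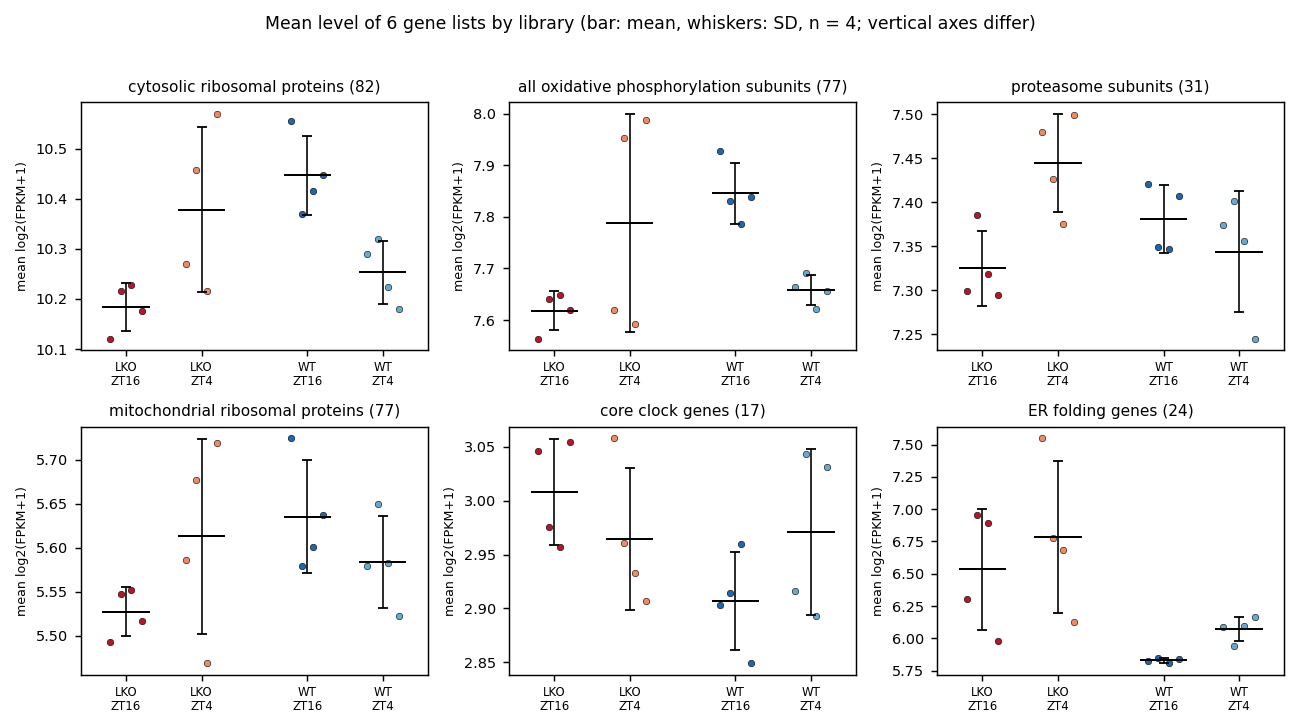
Mean log2(FPKM+1) of 6 gene lists in each library, with the mean and SD of each group. The ribosomal and oxidative phosphorylation lists are higher in LKO ZT4 and WT ZT16 than in LKO ZT16 and WT ZT4 on average, with LKO ZT4 spread over the widest range.

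Mitochondrial ribosomal proteins and the proteasome had smaller medians. Of 77 mitochondrial ribosomal protein genes, 62 were below 0 (median -0.13), 16 had an unadjusted p under 0.05 below 0 (20.8%) and 0 passed in limma. Mrpl33, of the large mitochondrial subunit, led with -0.83 ± 0.17 (adjusted p = 0.0551), followed by Mrpl52 with -0.58 ± 0.16 (adjusted p = 0.190). All 31 proteasome subunits were below 0 (median -0.17), 14 with an unadjusted p under 0.05 (45.2%), and 0 passed in limma. Over all tested genes 47.7% were below 0, and 5.86% were below 0 with an unadjusted p under 0.05. Psmb4, a subunit of the catalytic core, had -0.31 ± 0.08 (adjusted p = 0.176) and the core subunit Psma2 had -0.30 ± 0.08 (adjusted p = 0.176). With length trends removed the median of the mitochondrial ribosomal list was -0.04 and that of the proteasome list -0.07. With the same summed FPKM the medians of these lists were 0.06 and 0.02, above 0 but still below the 0.17 of all genes.

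Among lists of signalling and stress genes, 0 genes passed in limma apart from Snhg6. For the counts below, 5626 of all 11783 tested genes (47.7%) had an interaction below 0. Targets of SRF and YAP, transcription regulators that respond to actin and serum, had a median of -0.21 (21 of 23 below 0, 4 with an unadjusted p under 0.05), and of -0.03 with the same summed FPKM. Ctgf, a secreted matrix protein, averaged 49.7 ± 16.2 FPKM in LKO ZT16, 88.9 ± 25.9 in LKO ZT4, 95.3 ± 40.6 in WT ZT16 and 74.9 ± 28.4 in WT ZT4 (interaction -1.17 ± 0.44, adjusted p = 0.360). The metallothionein Mt1, which binds zinc, averaged 341 ± 74.8 FPKM in LKO ZT16, 554 ± 147 in LKO ZT4, 499 ± 70.9 in WT ZT16 and 379 ± 36.8 in WT ZT4 (-1.07 ± 0.25, adjusted p = 0.103), and Mt2 had -1.12 ± 0.30 (adjusted p = 0.176). Over the whole list of NRF2 and metallothionein genes the median was -0.11 (19 of 32 below 0), and it was 0.02 without LKO ZT4 replicate 1 and 0.01 without WT ZT16 replicate 4. Id3, a target of BMP signalling that restrains myogenic factors, had -0.77 ± 0.26 (adjusted p = 0.296), while its list of TGF-beta and BMP targets had a median of 0.00 (-0.07 without replicate 1 and 0.08 without replicate 3 of WT ZT16, and 0.18 at an equal FPKM sum). Hosts of small nucleolar RNAs other than Snhg6 had no passing gene, Snhg3 had -0.71 ± 0.27 (adjusted p = 0.366), and the list's median of -0.15 was 0.12 with length trends removed, -0.24 without LKO ZT16 replicate 2 and -0.06 without LKO ZT16 replicate 3. Glycolysis and hypoxia targets had a median of -0.15 (24 of 29 below 0, 0 with an unadjusted p under 0.05), -0.02 without LKO ZT4 replicate 1, -0.05 without WT ZT16 replicate 1 and -0.08 without LKO ZT16 replicate 1. With the same summed FPKM the NRF2 and glycolysis medians were 0.08 and 0.03, also above 0 and below the 0.17 of all genes.

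Some lists had night-minus-day medians of the same sign under both sera. ER folding genes, the chaperones and enzymes that fold secreted proteins, had medians of -0.24 under LKO serum and -0.25 under WT serum and an interaction of -0.02, with 0 of 24 genes at an unadjusted p under 0.05. Their mean level ran from 5.98 to 6.96 in LKO ZT16 and 6.13 to 7.55 in LKO ZT4, against 5.81 to 5.85 in WT ZT16 and 5.94 to 6.17 in WT ZT4, so the LKO groups were far wider than the difference compared. Without LKO ZT4 replicate 1 the interaction median was 0.25 and without LKO ZT4 replicate 4 it was -0.24, and with the same summed FPKM it was 0.17, as over all genes. ATF4 targets, genes of amino acid supply, had -0.13 under LKO serum, -0.18 under WT serum and an interaction of 0.08, which was -0.04 without WT ZT4 replicate 2, 0.16 without LKO ZT4 replicate 1 and 0.26 with the same summed FPKM. Cholesterol synthesis genes had -0.08 under LKO serum and -0.24 under WT serum. Of their 25 interactions 23 were above 0, against 6157 of all 11783 tested genes, and 0 had an unadjusted p under 0.05. The median interaction of the list was 0.12. That median was 0.03 without LKO ZT16 replicate 2 and 0.30 without LKO ZT4 replicate 1, and 0.31 with the same summed FPKM.

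The core clock genes of the myotubes had a median interaction of 0.14, with 12 of 17 tested genes above 0, and 0 passed in limma. Over all tested genes 6157 of 11783 were above 0. Nr1d2, a repressor of the clock, averaged 19.4 ± 1.77 FPKM in LKO ZT16, 17.9 ± 0.886 in LKO ZT4, 17.1 ± 1.43 in WT ZT16 and 19.2 ± 1.83 in WT ZT4 (0.27 ± 0.11, adjusted p = 0.423), and was the only clock gene with an unadjusted p under 0.05. Cry1, a repressor of CLOCK and BMAL1, had 0.37 ± 0.19 (adjusted p = 0.536), Per2 0.20 ± 0.16 (adjusted p = 0.714) and Dbp, an output of the clock, 0.11 ± 0.21 (adjusted p = 0.904). With length trends removed the median of the list was 0.03, without WT ZT4 replicate 4 it was 0.09, and without LKO ZT16 replicate 4 it was 0.09. It was 0.23 with a pseudocount of 0.1 and 0.25 with the same summed FPKM.

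**Figure D4:**
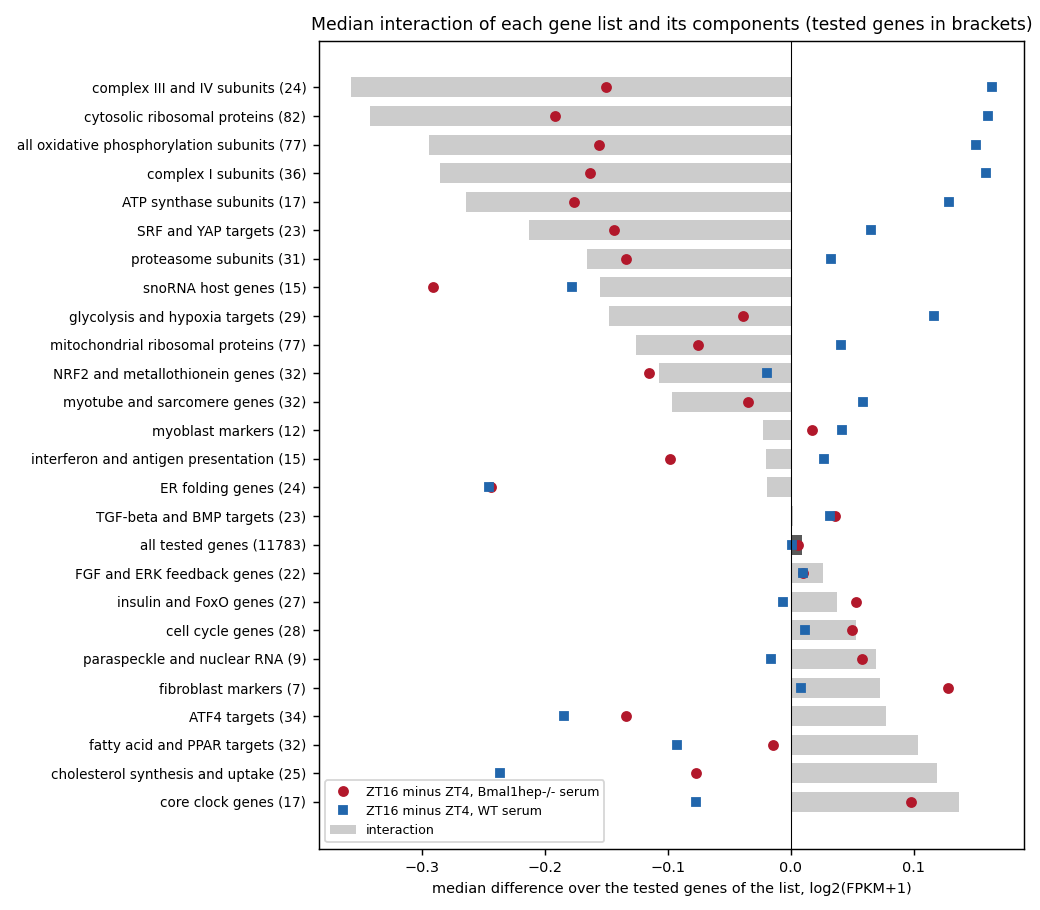
Median over the tested genes of each list of the interaction (bars) and of ZT16 minus ZT4 under LKO serum (circles) and WT serum (squares), in log2(FPKM+1). The ribosomal and oxidative phosphorylation lists have circles below 0 and squares above 0, and ER folding genes have both at about the same place.

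Genes of fatty acid metabolism, insulin signalling, growth factor feedback, interferon, the cell cycle and muscle differentiation gave medians between -0.10 and 0.10. Fatty acid and PPAR targets had 0.10 (0.04 without WT ZT16 replicate 1, 0.06 without LKO ZT4 replicate 4, 0.29 with the same summed FPKM), and Elovl6, a fatty acid elongase, had 0.42 ± 0.20 (adjusted p = 0.480). Insulin and FoxO genes had 0.04 (0.02 without WT ZT4 replicate 4, 0.07 without LKO ZT16 replicate 2, 0.20 with the same summed FPKM), with Igfbp5, a binding protein of insulin-like growth factors, at 163 ± 41.4 FPKM in LKO ZT16, 113 ± 40.8 in LKO ZT4, 120 ± 23.0 in WT ZT16 and 146 ± 20.98 in WT ZT4 (0.84 ± 0.31, adjusted p = 0.349). Growth factor feedback genes had 0.03, which took either sign when 1 library was left out (-0.07 without replicate 1 and 0.08 without replicate 4 of LKO ZT4) and was 0.205 with the same summed FPKM. Fgf2 averaged 3.93 ± 0.716 FPKM in LKO ZT16, 2.07 ± 0.419 in LKO ZT4, 4.28 ± 1.04 in WT ZT16 and 3.90 ± 0.607 in WT ZT4 (0.59 ± 0.20, adjusted p = 0.311). Interferon and antigen presentation genes had -0.02 (-0.11 without replicate 3 and 0.02 without replicate 2 of WT ZT16, and 0.13 at an equal FPKM sum). Cell cycle genes had 0.05 (0.02 without WT ZT4 replicate 3, 0.24 with the same summed FPKM). Paraspeckle and other nuclear RNAs had 0.07 (0.12 without WT ZT4 replicate 4, 0.26 with the same summed FPKM), with Malat1 at 0.51 ± 0.15 (adjusted p = 0.220). Sarcomere genes had -0.10, which was -0.16 without WT ZT16 replicate 4, -0.03 without WT ZT16 replicate 2 and 0.07 with the same summed FPKM, and their summed FPKM ran over 12700 to 14300 in LKO ZT16, 11500 to 17500 in LKO ZT4, 13300 to 16800 in WT ZT16 and 12500 to 15200 in WT ZT4. Fibroblast markers had 0.07 (0.003 without replicate 1 and 0.17 without replicate 4 of LKO ZT4, and 0.25 with the same summed FPKM), and of the adipocyte and blood cell markers only 2 genes each were tested, with medians of 0.43 and -0.33. Myoblast markers had -0.02 (-0.09 without WT ZT4 replicate 4, 0.16 with the same summed FPKM) and summed to 506 to 568 in LKO ZT16, 479 to 643 in LKO ZT4, 550 to 654 in WT ZT16 and 543 to 582 in WT ZT4. The part that the mixture of fused and unfused cells had in the interaction was not tested, and in bulk samples fewer cells of a type and less RNA per cell cannot be told apart.

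Genes just outside the threshold included further ribosomal and mitochondrial genes. With predicted genes left out, the 10 with the smallest p below 0 that did not pass had adjusted p from 0.0544 to 0.0551. Besides Ndufa3, Rpl37a and Mrpl33 they included Naa38, a small subunit of an N-terminal acetyltransferase (53.4 ± 7.31 FPKM in LKO ZT16, 66.3 ± 2.395 in LKO ZT4, 63.5 ± 5.80 in WT ZT16 and 51.6 ± 1.51 in WT ZT4, interaction -0.60 ± 0.12), the autophagy initiation factor Atg101 (-0.50 ± 0.10), the vesicle tethering factor Trappc2l (-0.45 ± 0.09), the G protein gamma subunit Gng5 (-0.67 ± 0.13), Commd4 (-0.78 ± 0.15) and the proteasome-associated Shfm1 (-0.53 ± 0.10). Above 0, Xiap, an inhibitor of caspases, averaged 16.7 ± 0.797 FPKM in LKO ZT16, 12.8 ± 1.11 in LKO ZT4, 14.1 ± 0.184 in WT ZT16 and 15.4 ± 1.098 in WT ZT4 (0.47 ± 0.09, adjusted p = 0.0544). Tecrl, related to enoyl reductases of the ER, had 0.72 ± 0.14 (adjusted p = 0.0551) at a mean of 0.949 ± 0.143 FPKM in LKO ZT16, 0.576 ± 0.148 in LKO ZT4, 0.325 ± 0.093 in WT ZT16 and 0.769 ± 0.174 in WT ZT4. Others above 0 were the pocket protein Rbl1 (0.45 ± 0.10), Fndc1 (0.81 ± 0.18), the mitochondrial chaperone Clpx (0.32 ± 0.08), the zinc transporter Slc30a4 (0.44 ± 0.11), the RNA-binding protein Msi2 (0.39 ± 0.10), Akr1b7 (0.65 ± 0.17), the imprinted gene Mest (1.00 ± 0.26) and the condensin subunit Smc4 (0.31 ± 0.08), with adjusted p from 0.0880 to 0.157.

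The median interaction rose with annotated transcript length, from below 0 among short transcripts to above 0 among long ones. The median transcript of the 11 genes was 612 nt, against 2655.5 nt over tested genes, and 9 of the 11 were under 1000 nt. The median interaction was -0.34 over 126 genes under 500 nt, -0.17 over 914 of 500 to 1000 nt, -0.07 over 2800 of 1000 to 2000 nt, 0.02 over 4704 of 2000 to 4000 nt and 0.10 over 2820 longer genes. Outside the ribosomal and oxidative phosphorylation lists it was -0.22 over 102 genes under 500 nt and -0.15 over 819 of 500 to 1000 nt. Within the length class of 500 to 1000 nt the ribosomal genes were at -0.34 (54 genes) and the oxidative phosphorylation genes at -0.31 (41 genes). Among genes of neither list in that class the median was -0.23 over 160 with a mean of at least 100 FPKM and -0.13 over 659 below that.

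The same balance could be read per library. The mean of centred log2(FPKM+1) over genes under 500 nt minus that over genes above 2000 nt was -0.14, 0.00, 0.02 and -0.10 in LKO ZT16 and -0.13, 0.17, -0.19 and 0.33 in LKO ZT4. It was 0.10, 0.19, 0.01 and 0.09 in WT ZT16 and -0.11, -0.05, -0.06 and -0.14 in WT ZT4. The WT groups did not overlap, while LKO ZT4 spanned both ends of the scale, with replicates 2 and 4 high and replicates 1 and 3 low, as in Rpl38, Slirp and the oxidative phosphorylation list. With the length trend of each library removed, 13 genes passed, 2 above and 11 below 0, and 9 of the 11 genes were among them. Rpl34-ps1 (-0.99, adjusted p = 0.0604) and Tmem208 were the ones lost. In that fit Rps27rt had -1.35 (adjusted p = 0.000126), Rps21 -1.44 (adjusted p = 0.000137), Snhg6 -1.11 (adjusted p = 0.00487) and Slirp -1.09 (adjusted p = 0.0115). Among the 10324 genes of at least 1000 nt, 1 passed.

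**Figure D5:**
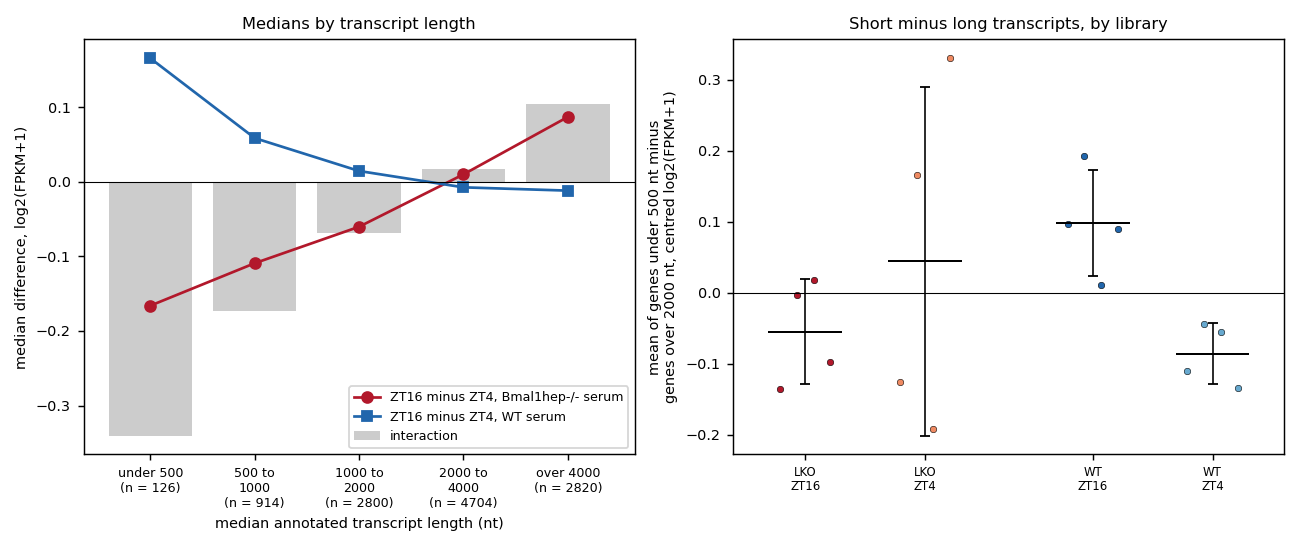
Left, median interaction (bars) and median ZT16 minus ZT4 under LKO serum (circles) and WT serum (squares) by transcript length class, in log2(FPKM+1), with the number of genes. Right, short-minus-long value of each library with the mean and SD of each group, in which LKO ZT4 runs from -0.19 to 0.33.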

How the data were processed

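RNA of 16 C2C12 libraries, 4 in each of 4 groups, was extracted on DirectZol columns and made into libraries by poly-T bead capture and random hexamer priming, per the labels' protocols. The authors deposited 1 table of FPKM values (fragments per kilobase of transcript, scaled to library size), with no counts. STAR, FastQC 0.11.8 and the builds mm10 and GRCm39 are named in the submitters' processing notes without roles, and the sources used here do not give the FPKM program, the annotation, strand use or the handling of multi-mapping reads. Columns were matched to samples by name. Of 24346 rows, 27 with dates in place of symbols were left out, and 7121 of the 24319 named genes were at 0 in every library.

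Log2(FPKM+1) of the 11783 genes with a mean of at least 0.5 FPKM was fitted with limma 3.58.1 in R 4.3.3 (4 group means, no covariate, moderated with an intensity trend), with Benjamini-Hochberg adjustment over all tested genes. This scale understates changes of low genes. Named genes were those that passed, the next 10 on each side, up to 4 members of each list with the smallest p, Arntl and clock genes. Predicted genes (symbols of Gm and a number, or ending in Rik) were left out of the next 10. 1 gene that this rule names is not reported here. The genes and lists were chosen with earlier results of these data known. Gene positions and transcript lengths (the median over a gene's basic GENCODE transcripts) were from GRCm38, and copies were found with blastn 2.17.0 (at least 200 nt). Alternatives changed the pseudocount (0.1), the filter (none, or a mean of at least 2 FPKM), scaling, library weights, a replicate block, length and GC trends and the libraries included. Python 3.11.15, pandas 2.3.3 and matplotlib 3.10.9 were used. The absolute depth of the libraries is unknown, so no counting interval is given.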

Additional observations from a re-analysis of the deposited data

Results flagged for a closer look

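The night-minus-day response differed between LKO and WT serum by the interaction test itself in Snhg6 (-1.27), Rps27rt (-1.49), Rps21 (-1.58), Rpl34-ps1 (-1.12), Rpl39 (-1.04), Gm12191 (-0.61), Slirp (-1.13), Tmem208 (-0.56), Rpl38 (-1.64), Chpt1 (0.51) and Cox7a2 (-0.69), all in log2(FPKM+1).

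A single library lay far from the other 3 of its group in 11 of 228 checks, and chance alone marks about 1 in 20. Rpl34-ps1 was at 1414 FPKM in WT ZT4 replicate 1, with the others at 1203 to 1233. Rpl38 was at 3238 FPKM in WT ZT16 replicate 1, with the others at 2320 to 2412, and Ndufa3 in the same library was at 281.8 FPKM, with the others at 238.6 to 243.3. Commd4 was at 51.78 FPKM in LKO ZT4 replicate 4, with the others at 37.7 to 39.84. Shfm1 was at 275.2 FPKM in LKO ZT16 replicate 3, with the others at 249.6 to 252.0.

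Among mean list levels in log2(FPKM+1), cholesterol synthesis genes were at 5.853 in LKO ZT4 replicate 1, with the others at 5.149 to 5.249. NRF2 and metallothionein genes had 1 library apart in each group. It was LKO ZT16 replicate 2 at 5.957 (others 5.872 to 5.883), LKO ZT4 replicate 1 at 6.274 (others 5.932 to 5.988), WT ZT16 replicate 4 at 6.132 (others 5.73 to 5.789) and WT ZT4 replicate 2 at 5.945 (others 5.821 to 5.837). Insulin and FoxO genes were at 4.281 in LKO ZT16 replicate 2, below the others at 4.392 to 4.411.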

How the results depend on the processing

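The count of 11 genes became 3 with no filter on low values (17198 genes tested), 23 with a mean of at least 2 FPKM, 17 with the same summed FPKM, 127 with library weights and 1 among transcripts of at least 1000 nt. Leaving out 1 library at a time gave 6 to 109. It was 11 with a pseudocount of 0.1, 10 with median-ratio scaling and 13 with length trends removed. With length and GC trends removed, an alternative chosen after seeing the data, it was 12, of which 8 were among the 11. Rpl34-ps1, Tmem208 and Chpt1 did not pass there (limma adjusted p = 0.0694, 0.214 and 0.111). Of the 11 genes, 9 are shorter than the length limit and could not pass under it. Chpt1 is longer and did not pass there either (limma adjusted p = 0.105). The cause of the other moves was not tested. A replicate block by the numbers in the titles gave 6 genes, all among the 11. A block by the numbers in the column names gave 12, of which 10 were among the 11. The column numbers differ from the titles for 7 libraries, and that block was added after seeing the data. Deviations of same-numbered libraries correlated between -0.22 and 0.26 over 24 pairs by title (median 0.001) and between -0.09 and 0.34 by column name (median 0.059). These values do not settle whether the numbers paired the samples. Over named genes, 710 recomputed interactions kept their sign and side of the threshold, 66 newly passed and 56 no longer passed. The other 10 were all of Arntl, whose interaction of -0.01 changed sign without passing. It was 0.146 with the same summed FPKM and 0.0806 with library weights, and ran from -0.11 to 0.11 when 1 library was left out. Snhg6, Rps27rt and Rps21 passed under each alternative that included them. Of recomputed list medians 676 moved by less than the spread between replicates and 52 by more. The absolute depth is unknown, so its part in what could be called was not tested.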

Other observations

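Ass1, argininosuccinate synthase of arginine synthesis, was picked out after its values were seen. It was lower with LKO than with WT serum at ZT16 (-1.36 ± 0.22, limma adjusted p = 0.0387), and its interaction did not pass. It had 8.447, 7.945, 15.94 and 17.45 FPKM in LKO ZT16 and 18.23, 26.19, 18.42 and 30.8 in LKO ZT4. It had 31.39, 30.25, 34.22 and 31.46 in WT ZT16 and 22.62, 14.86, 23.39 and 24.48 in WT ZT4. The ZT16 and ZT4 libraries did not overlap under either serum, and replicates 1 and 2 of LKO ZT16 were below all other libraries. The interaction was -1.48 ± 0.32 (limma adjusted p = 0.0757).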
